A study of Arabidopsis thaliana with 6 samples.

Results

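The group VIIIa ethylene response factors (ERFs) of *Arabidopsis thaliana* are DNA-binding proteins that carry the ERF-associated amphiphilic repression (EAR) motif and switch genes off. The 8 genes described here, ERF3, ERF4, ERF7, ERF8, ERF9, ERF10, ERF11 and ERF12, were taken by their gene identifiers, and all 8 were among the 11167 genes of the expression table. The family was picked with earlier results of these data known. RNA was taken from whole 2-week-old seedlings of the *flu* 1-1 mutant in the Col-0 background, with 3 libraries per group. Seedlings of the 4 h group stood in water in darkness for 4 h, those of the 0 h group for 0 h, and both groups then had 30 min of light at 30 µE. The mutant lacks the brake on δ-aminolevulinic acid synthesis, so that protochlorophyllide builds up in darkness and yields singlet oxygen once light returns. Both groups carried *flu* 1-1 and no group spent 4 h in the light. Darkness, singlet oxygen made on return to light, the time in water and the time of day therefore cannot be told apart. One field of the labels describes these times as spent in light. The protocol, in which darkness preceded the light, was taken as the design.

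ERF proteins bind the GCC box, a short promoter element of ethylene-responsive and defence genes. Activating ERFs of group IX turn such genes on, whereas the EAR motif of group VIIIa proteins recruits TOPLESS co-repressors and, through SAP18 and SIN3-like adaptors, the histone deacetylase HDA19. The repressors have been placed in ethylene, abscisic acid and jasmonate responses and in leaf senescence, where they hold back the same kinds of genes that activators induce.

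The stretches that encode the EAR motif are shown because they define the group, and they were read from the TAIR10.1 genome with its RefSeq gene models. Each is written 5′ to 3′ on the coding strand, with the codons of the motif in capitals.
ERF3, chr1:18757653-18757694, minus strand: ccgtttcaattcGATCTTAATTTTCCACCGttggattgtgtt
ERF7, chr3:7086011-7086052, minus strand: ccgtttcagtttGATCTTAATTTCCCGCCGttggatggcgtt
ERF4, chr3:5122084-5122134, plus strand: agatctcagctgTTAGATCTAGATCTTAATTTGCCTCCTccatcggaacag
ERF8, chr1:19821542-19821589, minus strand: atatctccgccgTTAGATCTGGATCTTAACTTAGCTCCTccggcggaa
ERF9, chr5:17807288-17807338, plus strand: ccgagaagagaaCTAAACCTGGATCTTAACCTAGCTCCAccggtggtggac
ERF11, chr1:9956354-9956404, minus strand: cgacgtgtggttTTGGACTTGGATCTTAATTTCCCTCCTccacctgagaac
ERF12, chr1:9952459-9952500, plus strand: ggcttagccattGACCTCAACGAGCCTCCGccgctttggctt
ERF10, chr1:957264-957293, minus strand: gaaccggatcttGACCTCAACGCAAGTCCC
In ERF4, ERF8, ERF9 and ERF11 the capitals cover a leucine-repeat EAR motif that runs into the motif built on aspartate, leucine and asparagine, and in ERF3, ERF7, ERF10 and ERF12 they cover the second kind alone. The coding sequence of ERF12 held 1 further match of each kind elsewhere, and the stretch shown is 1 of its 2 matches of the second kind. Those of ERF4 and ERF8 each held 3 leucine-repeat matches, and the capitals do not cover all of them. In ERF10 the motif ended the coding sequence, with 0 codons after it, whereas 3 to 5 codons followed it in ERF4, ERF8, ERF9, ERF11 and ERF12. It was followed by 20 codons in ERF3 and 21 in ERF7. These are the closest pair of the family, whose encoded residues were 75.8% identical, while ERF4 and ERF8 were 71.0% identical. The remaining pairs lay between 41.8% and 57.8%. The coding sequence of each gene was in 1 exon, and none of the genes overlapped another annotated gene. ERF12 (chr1:9951762-9953105, plus strand) and ERF11 (chr1:9955774-9956980, minus strand) were neighbours with 2668 bp between them.

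Bulk MARS-seq sequences the 3′ ends of transcripts, and the libraries held 1012425 to 2185464 reads at 4 h and 1487666 to 1924910 at 0 h. Values are CPM, read counts divided by the library size in units of 1e6 reads, with library sizes put on a common scale by the TMM method (trimmed mean of M-values), and 3 reads corresponded to 1.37 to 2.97 CPM, a limit that covers counting error only. Reads came from 3′ ends and were not divided by transcript length, and values were compared between groups. A share of reads was not taken as a share of transcripts, since a read may be a PCR copy. Of 10622 genes tested, edgeR's quasi-likelihood test with Benjamini-Hochberg adjustment over all of them called 889 higher and 869 lower after 4 h at an adjusted p under 0.05, and the median log2 fold change was -0.06. The labelled tissue was reflected in both organ types: 7 of 7 leaf markers were tested, with summed levels of 46244 to 57562 CPM at 4 h and 55477 to 62398 CPM at 0 h, and 8 of 9 root markers, with 188 to 344 CPM at 4 h and 195 to 284 CPM at 0 h. Of the leaf markers 5 were lower at 4 h, where 8.18% of all genes tested were, and 0 higher, where 8.37% were. Of the root markers 1 was higher and 1 lower, and COBL9, a root hair gene, had no read in 1 library of each group. The root markers PYK10 and EXPA7 had at most 7.57 CPM in any library, and BGLU22 was under the filter. Fewer cells of a type and less RNA per cell cannot be told apart in whole seedlings, and the part of these shifts in the values below was not tested.

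Most of the repressor transcripts rose after 4 h of darkness. Of the 8 genes, 5 were called higher (ERF4, ERF9, ERF10, ERF11 and ERF12), where 8.37% of all genes tested were, and 0 were called lower, where 8.18% were. ERF10 reached the 5 reads needed for the test only in the 4 h group, so it could enter the test only as a gene that is higher there, and without it 4 of the other 7 genes were called higher. ERF3, ERF7 and ERF8 were not called. The median log2 fold change of the 8 genes was 1.11, with a range of 0.35 to 2.28, against the -0.06 of all genes tested. Both the median and the upper end of the range count ERF10. Among the other 7 genes the middle value was the 0.88 of ERF9 and the largest the 1.52 of ERF4. In 7 of the 8 genes, ERF10 among them, the 3 libraries of the 4 h group lay above the 3 of the 0 h group, as did those of 15.3% of all genes, and only in ERF7 did the groups overlap. A called rise of at least 2-fold was found in 4 of the 8, ERF4, ERF10, ERF11 and ERF12, or in 3 of 7 without ERF10, and in 2.71% of all genes. The number of calls was sensitive to single libraries, since it was 2 without replicate 1 or without replicate 2 of the 0 h group, and 3 without replicate 1 of the 4 h group. DESeq2 called 2 of the 7 genes to which it gave an adjusted p. The other alternatives that kept all libraries called 4 to 6. ERF4 and ERF11 were called in each of the 17 alternative analyses.

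**Figure D1:**
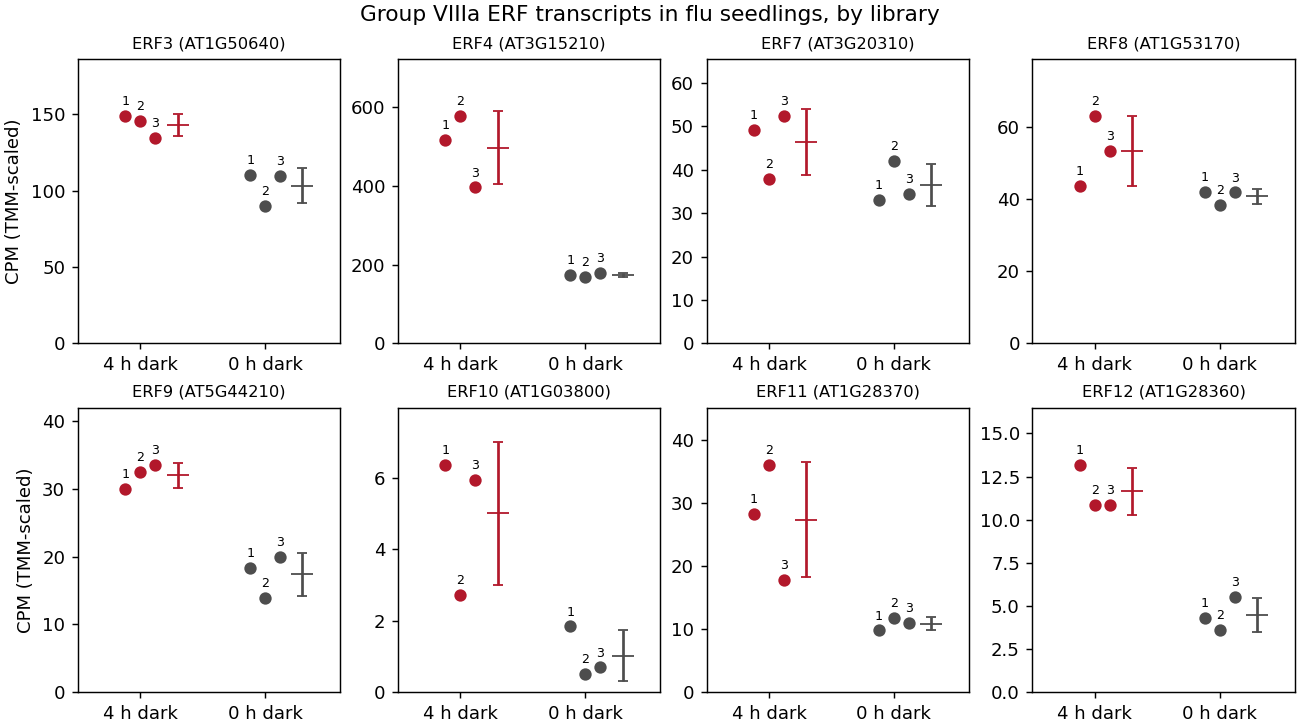
Abundance of the 8 group VIIIa ERF transcripts in each library. The y axis gives CPM on TMM-scaled library sizes from 0, with its own scale for each gene; points are libraries with their replicate numbers, 4 h of darkness on the left and 0 h on the right, and the bars beside them give the mean and SD of 3 libraries. The groups are apart in every gene but ERF7, and the gap is widest for ERF4, at 396 to 578 CPM after 4 h and 168 to 180 CPM after 0 h.

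ERF4 (AT3G15210, chr3:5121303-5122562, plus strand), a repressor of ethylene, jasmonate and abscisic acid responses that also acts in leaf senescence, gave the most reads and the firmest rise. It had 517, 578 and 396 CPM in the 4 h libraries, from 1136, 640 and 401 reads, and 174, 168 and 180 CPM in the 0 h libraries, from 285, 328 and 261 reads. Every 4 h library was more than 2-fold above every 0 h library, and the 0 h libraries were nearly level with each other. The means were 497 ± 92.3 CPM at 4 h and 174 ± 5.70 CPM at 0 h (SD, n = 3 each), a 2.86-fold difference with a 95% interval of 2.28 to 3.59 (log2 1.52, SE 0.16, edgeR adjusted p = 1.23e-07). Over the 17 alternatives the log2 change stayed between 1.41 and 1.65. The RNA-binding protein FPA is known to govern where the ERF4 transcript is cut, which decides whether the protein keeps its EAR motif, and counts summed per gene do not separate these forms.

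ERF8 (AT1G53170, chr1:19821337-19822399, minus strand), the closest relative of ERF4 and its partner in leaf senescence, did not pass the test. It had 43.7, 63.2 and 53.4 CPM at 4 h, and 42.2, 38.5 and 42.0 CPM at 0 h. The lowest 4 h library lay just above the highest 0 h library, so the groups were apart by a narrow margin. The fitted log2 change was 0.37 (95% interval -0.06 to 0.80, edgeR adjusted p = 0.254), and its upper bound lay below the lower bound of 1.19 for ERF4. Within each library, the log2 ratio of ERF4 to ERF8 was 3.53, 3.17 and 2.86 at 4 h and 2.01, 2.09 and 2.06 at 0 h. The means of 3.19 ± 0.33 and 2.06 ± 0.04 (SD, n = 3 each) differed by 1.13, with no overlap, and a two-sided exact permutation test gave p = 0.1, the smallest that 3 against 3 libraries allow.

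ERF11 (AT1G28370) represses genes of ethylene synthesis and is itself under the control of light and abscisic acid regulators. It had 28.2, 36.1 and 17.8 CPM in the 4 h libraries, from 62, 40 and 18 reads, and 9.78, 11.8 and 11.0 CPM in the 0 h libraries, from 16, 23 and 16 reads. All 4 h libraries were higher, although replicate 3 stood closer to the 0 h level than replicates 1 and 2. The rise was 2.52-fold (95% interval 1.63 to 3.90, log2 1.33, SE 0.31, edgeR adjusted p = 0.00288), and it was called in every alternative, with log2 changes of 1.14 to 1.54. Its chromosomal neighbour ERF12 (AT1G28360), which acts with TOPLESS on the seed dormancy gene DOG1, had 13.2, 10.8 and 10.9 CPM at 4 h and 4.28, 3.59 and 5.50 CPM at 0 h. These stand for 29, 12 and 11 reads at 4 h and 7, 7 and 8 reads at 0 h, and the groups did not overlap. The rise of ERF12 was 2.66-fold (95% interval 1.48 to 4.80, log2 1.41, SE 0.41, edgeR adjusted p = 0.0185). It was called in 13 of 17 alternatives and lost under DESeq2 (adjusted p = 0.0763) and without replicate 1 or 2 of the 0 h group or replicate 1 of the 4 h group.

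ERF9 (AT5G44210, chr5:17806397-17807541, plus strand) restrains defensin genes and resistance to necrotrophic fungi. It had 30.0, 32.5 and 33.6 CPM in the 4 h libraries and 18.3, 13.8 and 19.96 CPM in the 0 h libraries. The 4 h values were close together and all above the 0 h values. The rise was 1.85-fold (95% interval 1.28 to 2.67, log2 0.88, SE 0.26, edgeR adjusted p = 0.0182). It was called in 13 of 17 alternatives and lost, with adjusted p of 0.0504 to 0.0743, under DESeq2 and without replicate 1 or 2 of the 0 h group or replicate 2 of the 4 h group.

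ERF10 (AT1G03800, chr1:957104-958383, minus strand) was near the limit of detection. It had 14, 3 and 6 reads in the 4 h libraries and 3, 1 and 1 reads in the 0 h libraries. Having passed the filter through the 4 h group alone, it is described and supports no comparison. In CPM these were 6.37, 2.71 and 5.93 at 4 h and 1.83, 0.513 and 0.688 at 0 h, so the groups did not overlap although single reads moved the values. The fitted log2 change was 2.28 (SE 0.78, 95% interval 0.68 to 3.88, edgeR adjusted p = 0.0441), and the ratio of scaled read sums, 23 reads against 5, was 5.37 with an exact 95% interval of 2.00 to 18.1 that covers counting error only. The call was made in 6 of 14 alternatives and lost in 5 of the 6 that left out a library, among them replicate 1 of the 4 h group, which holds 14 of its reads.

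ERF3 and ERF7, the closest pair in sequence, changed least among the genes together with ERF8. ERF3 (AT1G50640, chr1:18756972-18758708, minus strand), a repressor studied alongside ERF4 in the first work on EAR motifs, had 149, 145 and 134 CPM at 4 h and 110, 89.7 and 109 CPM at 0 h. The groups did not overlap, and the log2 difference of 0.48 (SE 0.17, 95% interval 0.13 to 0.82) fell just short of the threshold (edgeR adjusted p = 0.0501). It passed in 7 of 17 alternatives and in 0 of the 6 that left out a library. ERF7 (AT3G20310, chr3:7084727-7086894, minus strand), which works with SIN3-like proteins and HDA19 in the abscisic acid response of guard cells, had 49.1, 37.9 and 52.4 CPM at 4 h and 33.0, 42.1 and 34.4 CPM at 0 h. Replicate 2 was the lowest library at 4 h and the highest at 0 h, so that the groups overlapped. The log2 change was 0.35 (95% interval -0.09 to 0.79, edgeR adjusted p = 0.305), which does not show that ERF7 stayed level, since a rise of up to 1.73-fold lies within the interval.

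**Figure D2:**
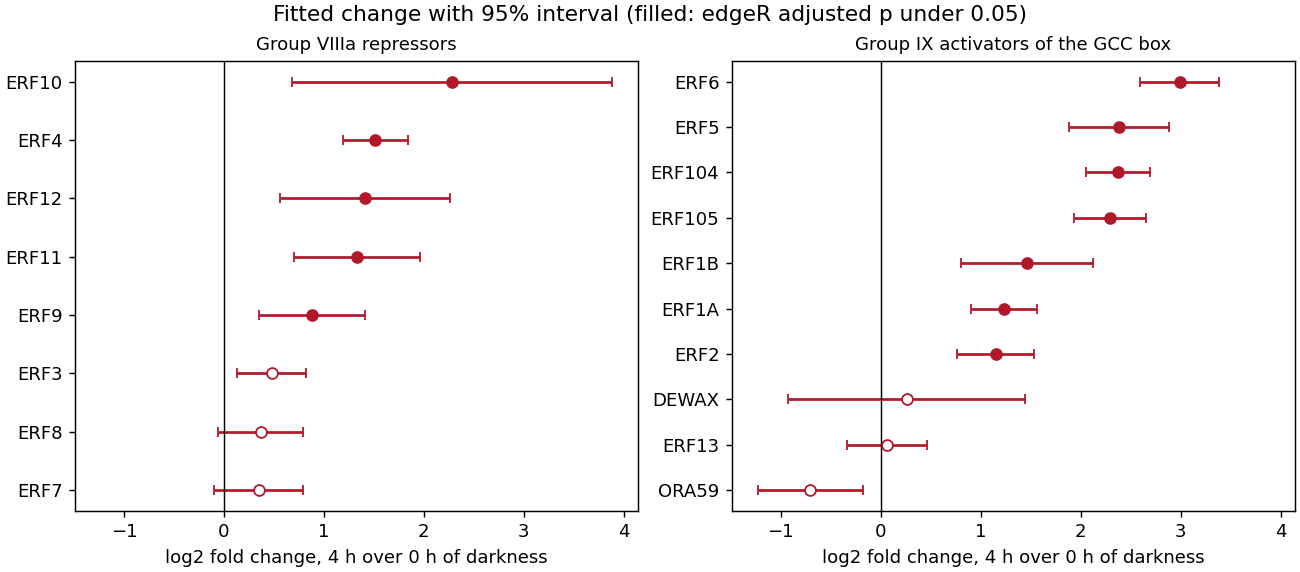
Fitted log2 fold changes, 4 h over 0 h of darkness, of the 8 group VIIIa repressors and of the 10 group IX activators that were tested. Points are edgeR estimates from 3 libraries per group, bars are 95% intervals, and filled points passed an adjusted p of 0.05. The repressors span 0.35 to 2.28, the upper end being ERF10, with 5 filled points, and the activators span -0.70 to 2.99, with 7.

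ERF4 made up the largest share of the reads of the family in every library. Summed over the 8 genes, the repressors had 836, 907 and 705 CPM at 4 h and 394, 368 and 403 CPM at 0 h, that is 816 ± 102 CPM and 388 ± 17.8 CPM (SD, n = 3 each, two-sided exact permutation p = 0.1, the smallest possible). ERF4 supplied 61.8%, 63.7% and 56.2% of these reads at 4 h and 44.3%, 45.7% and 44.6% at 0 h. The exact 95% intervals of these shares ranged from 52.5% to 66.7% at 4 h and from 40.4% to 49.4% at 0 h. They cover counting error only and are too narrow where reads are PCR copies. The mean share was 60.6 ± 3.90% at 4 h and 44.9 ± 0.74% at 0 h (SD, n = 3 each, two-sided exact permutation p = 0.1). The share of ERF3 was 17.8%, 16.04% and 19.1% at 4 h and 28.0%, 24.4% and 27.2% at 0 h. Relative to ERF4 within a library, ERF3, ERF7, ERF8 and ERF9 were lower at 4 h in all libraries, with ERF4 ratios higher by 1.02, 1.16, 1.13 and 0.64 on the log2 scale (two-sided exact permutation p = 0.1 each, 0.175 after Benjamini-Hochberg adjustment over the 7 ratios). Ratios of ERF4 to ERF11 and to ERF12 differed by 0.30 and 0.31 and their groups overlapped (two-sided exact permutation p = 0.2 each, 0.233 adjusted). ERF10 passed the filter through the 4 h group alone, so its ratio, counted among the 7, supports no comparison. It differed by 0.05 (p = 1 in the same permutation test). The ratios used a prior count of 2, large beside the 3, 1 and 1 reads of ERF10 at 0 h. The fitted log2 changes were 2.28 for ERF10 and 1.52 for ERF4, so this difference does not show that they rose alike. The prior count also weighs on the ERF12 ratio, from 7, 7 and 8 reads at 0 h and a fitted change of 1.41. No ratio could pass the threshold with 3 against 3 libraries.

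**Figure D3:**
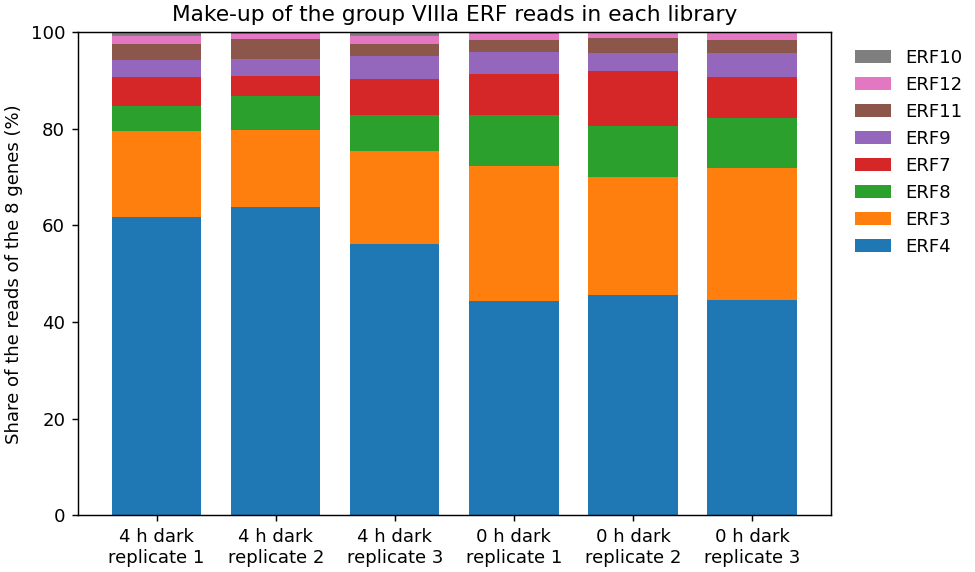
Make-up of the reads of the 8 genes in each library. Bars start at 0 and add up to 100%, the 3 libraries of the 4 h group stand left of the 3 of the 0 h group, and colours mark the genes. ERF4 takes 56.2% to 63.7% of the reads after 4 h and 44.3% to 45.7% after 0 h.

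The 250 bases before the start of the annotated mRNA, which in ERF4 and ERF8 lies inside the wider gene span given above, were searched on both strands for the GCC box (GCCGCC), the G-box (CACGTG), the W-box core (TTGAC) and the core of the dehydration-responsive element (CCGAC). Windows of ERF4 and ERF8 are shown because these close relatives differed in their change, and that of ERF11 because it held the one GCC box of the family. Capitals mark the matches to any of the 4 motifs.
ERF4, chr3:5121172-5121421, plus strand: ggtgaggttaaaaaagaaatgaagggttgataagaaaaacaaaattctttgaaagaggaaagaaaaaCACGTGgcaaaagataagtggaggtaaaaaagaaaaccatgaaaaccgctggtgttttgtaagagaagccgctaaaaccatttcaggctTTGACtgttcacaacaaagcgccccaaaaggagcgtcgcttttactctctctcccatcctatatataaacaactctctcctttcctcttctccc
ERF8, chr1:19822253-19822502, minus strand: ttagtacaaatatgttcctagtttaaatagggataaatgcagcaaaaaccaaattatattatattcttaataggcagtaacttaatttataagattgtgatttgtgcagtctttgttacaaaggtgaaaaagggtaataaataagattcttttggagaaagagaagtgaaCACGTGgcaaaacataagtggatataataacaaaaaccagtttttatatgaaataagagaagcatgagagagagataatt
ERF11, chr1:9956981-9957230, minus strand: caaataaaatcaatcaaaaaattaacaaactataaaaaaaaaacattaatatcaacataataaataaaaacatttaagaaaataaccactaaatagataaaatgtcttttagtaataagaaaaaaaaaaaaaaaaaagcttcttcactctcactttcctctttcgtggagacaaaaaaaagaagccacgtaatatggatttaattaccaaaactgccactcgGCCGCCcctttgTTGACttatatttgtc
A G-box, which bZIP and bHLH factors can bind, was found in 3 of the 8 windows and in 6.60% of 27443 windows of the same length. It lay 183 bases before the start in ERF4, 80 bases in ERF8 and 194 bases in ERF12. The windows of ERF4 and ERF8 shared a run of 14 bases that included it. A longer shared run, of 17 bases and without a G-box, was found in ERF9 and ERF11. Whether any of the motifs bears on the changes was not tested. The W-box core, the centre of WRKY binding sites, occurred in 6 of 8 windows and in 44.7% of all. The GCC box of ERF11 lay 28 bases before its start and was found in 1.92% of all windows. The dehydration-responsive core was present in 2 windows, those of ERF7 and ERF9, and in 12.3% of all. A match describes letters in the window and not a bound site.

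The group IX activators, which bind the same GCC box, were the family most like the repressors in kind. Of the 10 tested of 12 listed, 7 were called higher, where 8.37% of all genes were, and 0 lower, where 8.18% were. Whether each listed gene acts as an activator was not tested, and DEWAX/ERF107 (log2 0.26, not called) is counted among the 10. Their median log2 change was 1.35, beside 1.11 for the repressors with ERF10 counted and 0.88 without it. ERF6, ERF5, ERF104 and ERF105 had the smallest p among them. ERF6 had 344, 323 and 248 CPM at 4 h and 29.3, 43.1 and 42.7 CPM at 0 h. Its 4 h libraries were all far above the 0 h libraries, with an interval of 2.60 to 3.39 on the log2 scale that lay above that of ERF4. ORA59, an activator of jasmonate and ethylene defence, was at 18.7, 17.2 and 21.8 CPM at 4 h and 36.7, 26.7 and 30.3 CPM at 0 h, but was not called (log2 -0.70, edgeR adjusted p = 0.061). The difference between the families was not tested. The sister clade VIIIb was barely represented, with 1 of 5 listed genes in the table, LEP, at a log2 change of -0.37 (edgeR adjusted p = 0.77).

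Co-repressors on which the EAR motif acts changed in part. Of 12 tested genes, 3 were called higher, where 8.37% of all genes were, and 0 lower, where 8.18% were, with a median log2 change of 0.21. SAP18, an adaptor to the histone deacetylase, had 281, 276 and 246 CPM at 4 h and 165, 141 and 166 CPM at 0 h, which was 1.71-fold higher (log2 0.77, SE 0.15, edgeR adjusted p = 0.0008). TPL, TOPLESS itself, and its relative TPR1 were 1.57-fold and 1.67-fold higher (edgeR adjusted p = 0.00579 and 0.00525), and the call of TPL was lost without replicate 3 of the 4 h group. The deacetylase HDA19 (log2 0.28, edgeR adjusted p = 0.309), HDA6 and TPR2, TPR3 and TPR4 were not called. SNL1, a SIN3-like gene, had 10.5, 15.4 and 11.9 CPM at 4 h and 7.34, 8.21 and 6.88 CPM at 0 h, without a call.

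Ethylene genes upstream of the family also moved in part. Of 9 tested perception and signalling genes 5 were called higher, where 8.37% of all genes were, and 0 lower, where 8.18% were. The 5 were the receptor genes ETR1, ERS1, ETR2 and ERS2 and the kinase gene CTR1, and the median over the list was 0.68. ETR2 had 86.0, 91.2 and 67.2 CPM at 4 h and 34.2, 28.2 and 37.8 CPM at 0 h, a 2.46-fold rise (edgeR adjusted p = 5.59e-05). ERS2 was 2.12-fold higher, and its call was lost without replicate 1 of the 4 h group. The central regulator EIN2 was at a log2 change of 0.00 with an interval of -0.35 to 0.35, and EIL1 was not called either. Of 5 tested genes of ethylene synthesis, ACO4 (1.73-fold) and ACS7 (1.81-fold) were higher, where 8.37% of all genes were, and ACS2 was lower, where 8.18% were. ACS2 reached the 5 reads needed for the test only in the 0 h group, so it could enter only as a gene lower at 4 h. No other gene of the list was called lower. ACS7 lost its call under DESeq2, under upper quartile scaling and without replicate 1 of either group or replicate 3 of the 0 h group.

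ACS2, an ACC synthase gene that ERF11 is known to repress, was the lone gene of these lists called lower. It had 0, 0 and 2 reads in the 4 h libraries, against 28 reads in the 0 h libraries together, so it passed the filter only through the 0 h group, where it is higher. The ratio of scaled sums, 0 h over 4 h, was 12.0 with an exact 95% interval of 3.02 to 104 for counting error only, and the call (edgeR adjusted p = 0.0152) was lost without replicate 1 or 2 of the 0 h group or replicate 1 or 2 of the 4 h group. DESeq2 gave it no adjusted p, and it was not tested under filterByExpr. Among 7 tested genes reported as targets of the repressors 2 were higher, against 8.37% of all genes. ACS2, which could enter the test only as a gene lower at 4 h, was the 1 called lower, against 8.18%. The median of 0.32 counts it. CHIB, a basic chitinase with a GCC-box promoter, was higher by 0.58 on the log2 scale (edgeR adjusted p = 0.021), and CAT3, a catalase gene, by 0.44 (edgeR adjusted p = 0.0299). Both calls were lost in several of the analyses that left out a library. The defensin gene PDF1.2a was near the detection limit in every library, with 1.82, 4.51 and 1.98 CPM at 4 h and 2.45, 1.03 and 6.88 CPM at 0 h, and HEL was not called (edgeR adjusted p = 0.174).

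Of 5 tested genes reported to act on the repressors, CIPK15 and HY5 were higher, where 8.37% of all genes were, and 0 were lower, where 8.18% were. CIPK15, a kinase gene whose product binds ERF7 in abscisic acid signalling, had 709, 621 and 708 CPM at 4 h and 268, 221 and 253 CPM at 0 h, a 2.75-fold rise (edgeR adjusted p = 6.25e-08). HY5, a light-signalling bZIP factor known to act on ERF11, had 222, 267 and 302 CPM at 4 h and 113, 92.3 and 107 CPM at 0 h, a 2.52-fold rise (edgeR adjusted p = 2.36e-06). In both genes the 4 h libraries were far above the 0 h libraries. MPK6 was at 36.9, 33.4 and 33.6 CPM at 4 h and 26.3, 32.8 and 17.9 CPM at 0 h and was not called, nor were MPK3 and FPA, at no more than 7.95 CPM in any library.

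**Figure D4:**
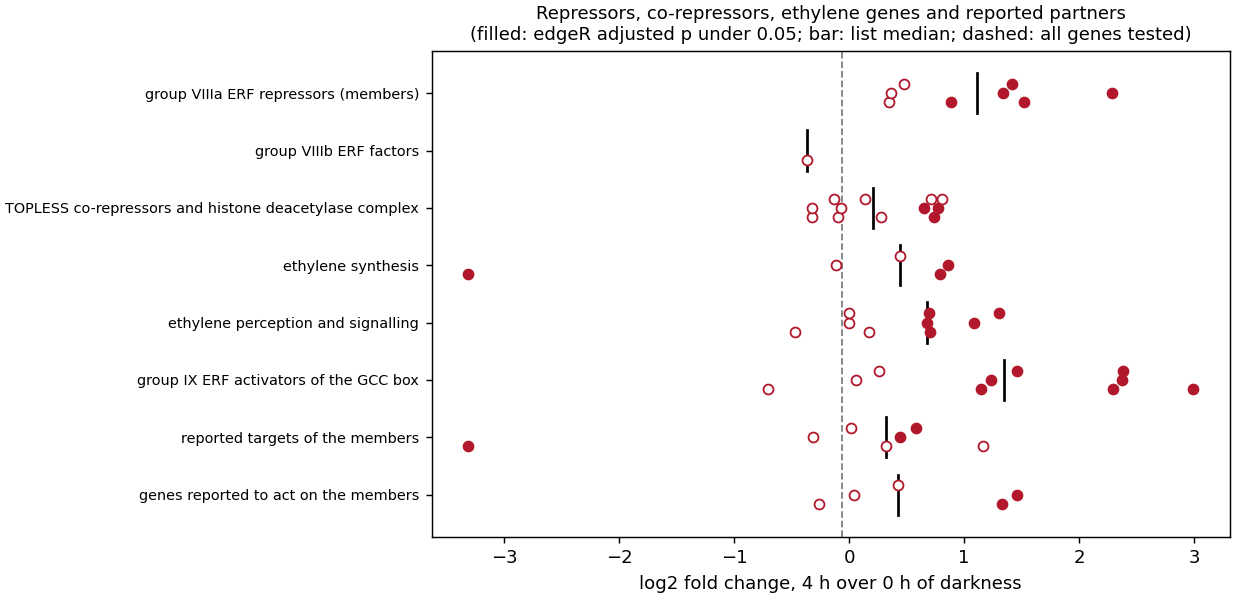
Log2 fold changes, 4 h over 0 h of darkness, of the tested genes of each list, one point per gene. Filled points passed an edgeR adjusted p of 0.05, short black bars are list medians and the dashed line is the median of all genes tested, -0.06. The repressors, ERF10 counted, have a median of 1.11 and the group IX activators of 1.35, and ACS2, near the left edge, stands in 2 lists.

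The genes most like the 3 repressors with the smallest p were sought by the root mean square difference of mean-centred log2 CPM over the 6 libraries, among 4725 other genes with a mean of at least 20 CPM. Nearest to ERF4 were LBD41, at a difference of 0.103, SIB1 at 0.105 and AT1G76600 at 0.112. ERF11 was followed by AT5G10695 (0.126), ZF3 (0.140) and UCP5 (0.146), and ERF9 by AT3G06355 (0.0548), IDD7 (0.0557) and AT4G21450 (0.0623). All 9 genes were chosen for this likeness, so their own changes are a description, with log2 values of 0.83 to 1.71. Among the repressors the closest profiles were those of ERF3 and ERF8, at a difference of 0.184, and of ERF4 and ERF11, at 0.213, while ERF4 and ERF8 were 0.597 apart.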

How the data were processed

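Whole seedlings of *flu* 1-1 were profiled in 6 libraries, grouped by the sample titles. Per the methods of the study, MARS-seq reads were trimmed, mapped with STAR to Araport 11 and counted with HTSeq, and the submitters' notes name bcl2fastq 2.17.1.14 and cutadapt 1.8.3. The authors deposited raw counts of reads per gene without filtering by molecular identifiers, so that a read may be a PCR copy. Beside them stood a deposited signal, the counts divided by size factors, and regularised log2 values made by the authors. Only the raw counts were tested. The labels do not say that replicates were separate cultures, so p-values measure the spread between these libraries, which may be technical. The study's methods for RNA extraction and qRT-PCR describe biological replicates of several whole seedlings, without naming these libraries. The labels state growth in continuous light and the methods a light and dark cycle, and the data list of the study assigns this series to another treatment. The labels were followed.

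Genes that reached 5 reads in 1 library or more, 10622 in all, were scaled by TMM and tested with edgeR 4.0.16 (limma 3.58.1, R 4.3.3), quasi-likelihood, group as the only term, adjusted at 0.05 over all of them, after a test of the scripts on simulated data. The fit gave a common dispersion of 0.0272 (prior degrees of freedom 22.1). Log2 CPM and ratios used a prior count of 2. Replicates differed beyond sampling noise (chi-square per degree of freedom 3.17 to 6.20). Named are the 8 repressors, up to 4 tested genes with the smallest p of each list, and 3 nearest profiles of 3 repressors. Other genes were named after their values were seen. The members and lists were chosen with earlier results of these data known. The alternatives comprised DESeq2 1.42.0, limma-voom, other scalings and filters, a replicate block, leaving out organelle genes and leaving out each library. Of the identifiers 11108 matched RefSeq (TAIR10.1). Identity came from pairwise alignment of translated coding sequences (Biopython 1.88), and figures from matplotlib 3.10.9 in Python 3.11.15.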

Additional observations from a re-analysis of the deposited data

How the results depend on the processing

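All 8 repressors kept a positive log2 change in each alternative in which they were tested. The number of repressors called, 5, was 2 under DESeq2 and 2 to 4 when a library was left out. It was 4 under upper quartile scaling, and 6 under relative log expression scaling, with no filter beyond 1 read and without organelle genes. Under DESeq2, ERF9 (0.89) and ERF12 (1.42) were no longer called, and ERF10 (2.35, unadjusted p = 0.0231) had no adjusted p. ERF10 also missed the threshold with limma-voom (2.21), upper quartile scaling (2.21) and the replicate block (2.20), and it was not tested under both stricter filters, filterByExpr and at least 5 reads in at least 3 libraries. ERF3 passed the threshold with limma-voom (0.49), relative log expression scaling (0.48), filterByExpr (0.44), at least 5 reads in at least 3 libraries (0.48), no filter beyond 1 read (0.49), the replicate block (0.48) and without organelle genes (0.49). Leaving out a library gave 0.75 to 0.99 for ERF9, 1.96 to 2.96 for ERF10 and 1.29 to 1.58 for ERF12. LEP, not called at -0.37, lay between -1.15 and 0.056 when a library was left out, the upper value without replicate 1 of the 4 h group. Genes called numbered 1211 to 1979 over the alternatives, the lower ones 543 under DESeq2 and 569 without replicate 2 of the 4 h group, against 869. The 24 named list genes gave 403 values, of which 21 lost a call, 0 gained one and 1 reversed. These are not all tested genes of the lists. Calls among all group IX activators, 7 in the main fit, were 8 under upper quartile scaling and under filterByExpr. The calls of ethylene synthesis, 3, were 1 under DESeq2 and without replicate 1 of either group, and those of the reported targets, 3, were 0 to 1 under upper quartile scaling, filterByExpr, and without replicate 1 or 3 of the 0 h group or replicate 2 of the 4 h group. The cause was not tested. Same-numbered libraries correlated by 0.02, 0.02 and 0.06 in their deviations, and each 4 h library correlated best with its own number. Correlations this small cannot decide whether the numbers pair the libraries. The replicate block raised the number of genes called to 1979 against 1758. Depth limits ERF10, ERF12 and ACS2, with at most 29 reads in any library.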
